A study of Mus musculus with 6 samples.

Results

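The 10 genes described here belong to the core of the circadian clock and were chosen by symbol: *Clock*, *Arntl*, *Per1*, *Per2*, *Per3*, *Cry1*, *Cry2*, *Nr1d1*, *Nr1d2* and *Dbp*. Each was found in the deposited table, which holds 47086 loci. *Per3* had 2 loci, of which the one on a scaffold was listed at 0 in every library, and the other was used. The libraries came from primary hippocampal cultures of C57BL/6 mice at 14 days in vitro (DIV). They comprised 3 libraries from wild type (WT) mice and 3 labelled as knockout (KO) for *Fmr1*, the gene of the RNA-binding protein FMRP that is silenced in fragile X syndrome. No treatment of these cultures is named, and the study's KO animals were described as males with WT littermates. Values are FPKM, that is, fragments assigned to a gene per kilobase of transcript and scaled by library. For each library, the hour of collection, the sex of the pups and their litter were not given in the sources used here.

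Mammalian cells keep time with a transcriptional feedback loop that runs in nearly every tissue. CLOCK and BMAL1 (the product of *Arntl*) bind together to E-box sequences and activate the *Per* and *Cry* genes, the *Nr1d* genes and *Dbp*. PER and CRY proteins then return to the nucleus and block this activation, REV-ERB receptors (the products of *Nr1d1* and *Nr1d2*) repress *Arntl*, and DBP activates genes through D-box sequences. In the hippocampus, as elsewhere in the brain, these genes cycle in neurons and in glia, and *Per1* is also induced by neuronal activity through CREB.

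The promoter sequences of 4 of the genes are shown. *Cry1* and *Dbp* were chosen for having the lowest adjusted p-values of the clock genes in the genotype comparison given below. Neither passed an adjusted p of 0.05 there. *Per1* and *Per3* were chosen because they carry the textbook motifs of the loop. The sequences are RefSeq windows on GRCm38.p6, running from before a transcript start to just after it and read 5′ to 3′ on the strand of the gene. The windows are chr10:85185005-85185304 (minus strand) for *Cry1*, chr11:69098699-69098998 (plus strand) for *Per1*, chr4:151044616-151044915 (minus strand) for *Per3* and chr7:45704997-45705296 (plus strand) for *Dbp*. That of *Per1* is 1 of the 2 windows available for it, and neither covers its most upstream RefSeq start. Capitals mark the E-box CACGTG, its variant CACGTT and the D-box TTATGTAA, each searched on both strands, and no match overlaps another.
Cry1: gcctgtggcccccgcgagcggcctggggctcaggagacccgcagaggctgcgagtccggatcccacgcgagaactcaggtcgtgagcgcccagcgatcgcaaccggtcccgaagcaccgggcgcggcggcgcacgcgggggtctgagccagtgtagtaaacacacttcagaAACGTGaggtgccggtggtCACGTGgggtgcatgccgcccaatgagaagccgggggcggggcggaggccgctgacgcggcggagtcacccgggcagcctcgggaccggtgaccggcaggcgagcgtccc
Per1: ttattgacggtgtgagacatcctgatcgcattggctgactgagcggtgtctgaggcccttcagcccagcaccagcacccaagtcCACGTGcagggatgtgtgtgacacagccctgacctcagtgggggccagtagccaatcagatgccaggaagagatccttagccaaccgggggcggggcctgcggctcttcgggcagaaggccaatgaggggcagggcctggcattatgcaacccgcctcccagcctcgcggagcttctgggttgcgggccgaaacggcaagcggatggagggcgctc
Per3: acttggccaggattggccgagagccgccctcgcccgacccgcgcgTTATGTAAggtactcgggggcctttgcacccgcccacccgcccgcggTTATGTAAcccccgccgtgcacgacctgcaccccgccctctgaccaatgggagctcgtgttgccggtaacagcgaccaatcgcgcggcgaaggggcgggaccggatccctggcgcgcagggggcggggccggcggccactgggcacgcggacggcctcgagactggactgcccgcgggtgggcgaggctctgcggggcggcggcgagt
Dbp: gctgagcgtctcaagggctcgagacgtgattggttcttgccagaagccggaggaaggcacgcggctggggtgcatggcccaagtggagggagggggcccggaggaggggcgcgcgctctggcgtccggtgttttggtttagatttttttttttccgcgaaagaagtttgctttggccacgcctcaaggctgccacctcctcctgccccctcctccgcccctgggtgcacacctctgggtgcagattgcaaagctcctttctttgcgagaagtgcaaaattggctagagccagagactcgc

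In *Cry1*, the E-box starts 60 bases before the transcript start and the variant starts 79 bases before it. The E-box of *Per1* starts 166 bases before the start, and *Per3* holds a D-box at 205 and another at 158 bases before the start. The *Dbp* window holds none of these letters. Of the 9 clock genes with a window (there was no entry for *Per2*), 2 held an E-box, 3 held the variant and 1 held the D-box in at least 1 of 13 windows. Among all 32851 promoter windows of this length, 7.15% held CACGTG, 4.68% held CACGTT and 0.938% held TTATGTAA. These are shares of single windows, whereas a gene with several windows has more chances of a match, so the gene counts are not directly comparable. A match is a description of these letters and not of binding.

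As a check of the material, the FPKM of the 8 neuronal markers summed to 1364 to 1400 in WT and 1372 to 1458 in *Fmr1* KO. The 6 astrocyte markers summed to 1271 to 1512 and 1349 to 1502, and the 6 markers of the oligodendrocyte lineage to 317 to 370 and 366 to 406, so the cultures held glia beside neurons. Within these sums, members differed. *Map2* was 19.9% higher in *Fmr1* KO and *Slc17a7* 3.81% lower, and the other 6 neuronal markers overlapped. *S100b* was 22.6% lower, and *Pdgfra* and *Olig2* were 22.2 and 18.6% higher. Their libraries were separate too, and the remaining 5 astrocyte and 4 oligodendrocyte markers overlapped. Of all tested loci, 21.1% did not overlap. The 8 microglial markers were low, at 4.16 to 6.29 in WT and 1.06 to 2.41 in *Fmr1* KO, with *Aif1* and *Tmem119* listed at 0. *Csf1r* overlapped between genotypes, at 0.894, 0.538 and 1.13 FPKM in WT and at 0.620, 0.704 and 0.794 in *Fmr1* KO. The 5 other members lay lower in all *Fmr1* KO libraries, which 10.3% of all tested loci did. These values are near the floor: *Cx3cr1* and *P2ry12* were below 1 FPKM throughout and not tested. *C1qa* and *C1qb* were at 0 in *Fmr1* KO replicate 2. The 6 endothelial and fibroblast markers summed to 40.8 to 45.9 and 31.8 to 40.2, with *Cldn5* at 0. *Dcn* alone made up nearly all of this, at 43.8, 43.2 and 39.0 FPKM in WT and at 39.0, 35.5 and 30.1 in *Fmr1* KO, and overlapped. The *Fmr1* KO means of *Pecam1* and *Flt1* were lower and those of *Col1a1* and *Col3a1* higher, all at most 1.11 FPKM. The 4 choroid plexus markers summed to 0.594 to 1.16 and 52.6 to 62.5, with *Kl* at 0. The choroid plexus gene *Ttr* made up nearly all of the latter, at 0 to 0.0910 FPKM in WT and at 52.0 to 60.7 in *Fmr1* KO. *Fmr1* itself was at 19.0 to 19.7 in WT and 18.5 to 23.1 in *Fmr1* KO, so its level does not check the labels, and the Y-linked *Eif2s3y* was at 9.26 to 9.68 and 19.6 to 22.4. *Gabra2* and *Nnt*, which differ between C57BL/6 substrains, were lower in *Fmr1* KO, by 74.6 and 40.2% of the WT mean. The part of these differences in the clock gene values was not tested. In bulk cultures, fewer cells of a type and less RNA per cell cannot be told apart.

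All 10 clock genes were expressed, and 9 of them were above 5 FPKM in every library. FPKM is scaled by transcript length, so levels can be ordered between genes. The places of *Nr1d1* and *Dbp* are less certain, since both share exonic bases with a gene on the opposite strand, as given below. Over the 6 libraries, *Cry2* was the most abundant, with 24.9 ± 0.946 FPKM (SD, n = 6), followed by *Dbp* at 21.1 ± 2.14, *Nr1d1* at 14.8 ± 0.754, *Clock* at 11.4 ± 0.698 and *Nr1d2* at 10.3 ± 0.404. *Per1* was at 9.12 ± 0.812 FPKM (SD, n = 6), *Arntl* at 6.44 ± 0.348, *Cry1* at 6.38 ± 0.731, *Per2* at 5.82 ± 0.148 and *Per3* at 1.61 ± 0.154. These SDs are over both genotypes, so they include any gap between the genotypes. The ranges of *Cry2* and *Dbp* overlapped, as did those of *Clock* and *Nr1d2*, *Nr1d2* and *Per1*, *Arntl* and *Cry1*, and *Cry1* and *Per2*. The ranges of *Dbp* and *Nr1d1*, of *Nr1d1* and *Clock*, of *Per1* and *Arntl* and of *Per2* and *Per3* were separate.

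**Figure D1:**
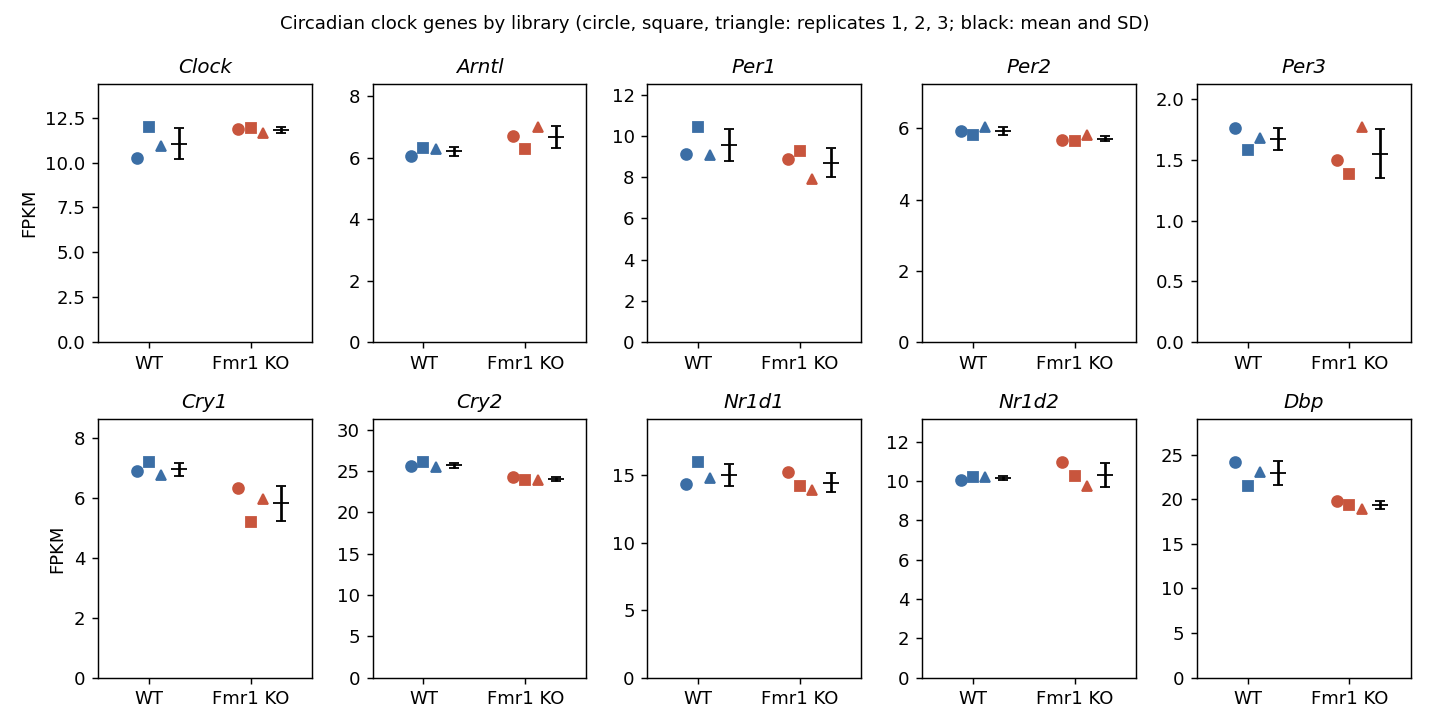
FPKM of the 10 clock genes (vertical axes, each from 0) in the 3 WT and the 3 Fmr1 KO libraries, with circles, squares and triangles for replicates 1, 2 and 3 and black bars for the mean and SD of 3. The libraries of the genotypes do not overlap for Per2, Cry1, Cry2 and Dbp, and they overlap for the other 6 genes.

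To ask whether loss of *Fmr1* altered clock gene transcripts, log2(FPKM + 0.1) was compared between genotypes with limma across all 13195 loci with a mean of at least 1 FPKM in either genotype, and p-values were adjusted over all of them by the Benjamini-Hochberg method. All 10 clock genes passed this minimum. The 2 lowest adjusted p-values were those of *Dbp*, the output gene, and of *Cry1*, a repressor, which were 15.6 and 16.2% lower in *Fmr1* KO. No clock gene passed an adjusted p of 0.05 (0 of 10), against 0.265% of all tested loci in either direction, 0.174% lower and 0.0909% higher. At an unadjusted p below 0.05 in limma, *Dbp* and *Cry1* were lower and no clock gene was higher, against 7.77% of all loci lower and 6.99% higher. The fitted change was below 0 for 7 of the 10 genes, against 48.3% of all loci. Its median over the 10 genes was -0.08 on the log2 scale, and -0.05 without *Fmr1* KO replicate 2, and its median over all tested loci was 0.0050. The libraries labelled *Fmr1* KO all lay below the WT libraries for 4 of the 10 genes, which 10.3% of all loci did, and all lay above them for 0 of 10, which 10.8% of all loci did.

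**Figure D2:**
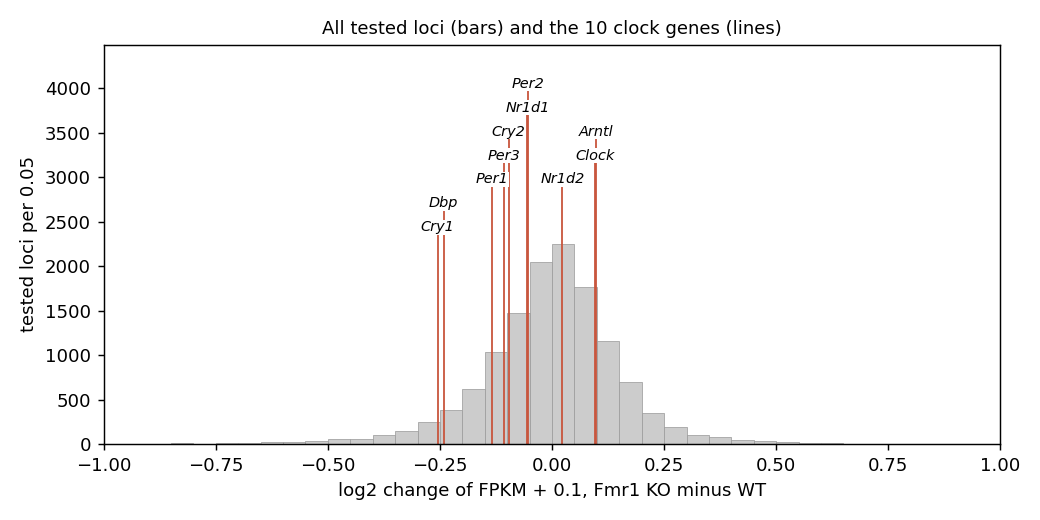
Number of tested loci (vertical axis) by log2 change of FPKM + 0.1, Fmr1 KO minus WT (horizontal axis, in steps of 0.05), with a line for each of the 10 clock genes. 74 of the 13195 loci lie beyond the axis, and the clock genes lie between -0.26 for Cry1 and 0.10 for Arntl.

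The activators are *Clock*, a histone acetyltransferase and transcription factor (chromosome 5, 76209868 to 76305603 on GRCm38), and its partner *Arntl* (chromosome 7, 113178471 to 113314126). *Clock* was at 10.3, 11.99 and 10.9 FPKM in WT replicates 1, 2 and 3 and at 11.9, 11.9 and 11.6 in *Fmr1* KO. WT replicate 2 was the highest of the 6, so the genotypes overlapped. *Arntl* was at 6.05, 6.31 and 6.28 FPKM in WT and at 6.70, 6.28 and 7.002 in *Fmr1* KO, where replicate 2 lay among the WT libraries. The log2 change was 0.10 for both genes (standard errors 0.07 and 0.07, adjusted p = 0.562 for *Clock* and 0.561 for *Arntl* in limma), with 95% intervals of -0.06 to 0.25 and -0.06 to 0.26. The change of *Clock* was 0.04 without WT replicate 1 and 0.16 without WT replicate 2, and that of *Arntl* was 0.06 without *Fmr1* KO replicate 3. *Clock* lies 5.11 Mb from *Gabra2* on chromosome 5.

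The period genes encode the PER proteins, whose build-up and decay time the loop. *Per1* (chromosome 11, 69095108 to 69109965) was at 9.13, 10.4 and 9.08 FPKM in WT and at 8.90, 9.27 and 7.91 in *Fmr1* KO, and replicate 2 was the highest library of each genotype. Its log2 change was -0.13 (standard error 0.08, 95% interval -0.33 to 0.06, adjusted p = 0.505 in limma), and it was -0.07 without WT replicate 2 or without *Fmr1* KO replicate 3. *Per2* (chromosome 1, 91415977 to 91459351) was at 5.93, 5.82 and 6.04 FPKM in WT and at 5.68, 5.65 and 5.81 in *Fmr1* KO. All 3 *Fmr1* KO libraries were below all 3 WT libraries, by a narrow gap, and *Per2* was among the steadiest transcripts of the cultures. Its SD within a genotype was 0.023 on the log2 scale, and 1.08% of tested loci had a smaller one, against a median of 0.0972 over all loci. The log2 change of *Per2* was -0.05 (standard error 0.07, adjusted p = 0.755 in limma), where the standard error takes in the spread of other loci of like level.

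*Per3* (chromosome 4, 150997018 to 151044707) was the weakest of the 10, at 1.76, 1.58 and 1.68 FPKM in WT and at 1.501, 1.38 and 1.77 in *Fmr1* KO. *Fmr1* KO replicate 3 was the highest of the 6 libraries. The log2 change of *Per3* was -0.11 with a 95% interval of -0.44 to 0.23 (adjusted p = 0.783 in limma), the widest interval of the 10 genes. It was -0.07 without WT replicate 1, -0.03 without *Fmr1* KO replicate 2 and -0.20 without *Fmr1* KO replicate 3.

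The cryptochromes are the repressors that bind CLOCK and BMAL1 directly. *Cry1* (chromosome 10, 85131700 to 85185054), whose promoter holds the E-box shown above, was at 6.89, 7.19 and 6.75 FPKM in WT and at 6.33, 5.18 and 5.94 in *Fmr1* KO. The genotypes did not overlap, and *Fmr1* KO replicate 2 was the lowest. WT averaged 6.94 ± 0.221 FPKM and *Fmr1* KO 5.82 ± 0.581 (SD, n = 3). On the log2 scale the difference was -0.26 (standard error 0.09, 95% interval -0.45 to -0.06, adjusted p = 0.234 in limma), and 6.81% of all tested loci had a smaller p. An exact permutation test of the 6 values of *Cry1* gave p = 0.1 (two-sided), which is the smallest that 3 libraries against 3 can give. Every gene whose libraries do not overlap gives this value, and 21.1% of all tested loci did not overlap. The permutation test thus adds nothing to the separation. Without *Fmr1* KO replicate 2, its log2 change was -0.18.

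*Cry2* (chromosome 2, 92403646 to 92434085) was at 25.6, 26.1 and 25.5 FPKM in WT and at 24.3, 23.9 and 23.9 in *Fmr1* KO. Again all *Fmr1* KO libraries were below all WT libraries, with means of 25.7 ± 0.312 and 24.0 ± 0.194 FPKM (SD, n = 3), and the difference was 6.51% of the WT mean. *Cry2* varied less between replicates than nearly all other loci, with an SD of 0.015 on the log2 scale that 0.197% of tested loci undercut. Its log2 change was -0.10 (standard error 0.05, 95% interval -0.20 to 0.01, adjusted p = 0.371 in limma).

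The REV-ERB genes encode heme-binding nuclear receptors that repress *Arntl*. *Nr1d1* (chromosome 11, 98767932 to 98775377) was at 14.4, 16.0 and 14.8 FPKM in WT and at 15.2, 14.2 and 13.9 in *Fmr1* KO, and *Nr1d2* (chromosome 14, 18204056 to 18239106) was at 10.05, 10.2 and 10.2 and at 10.97, 10.3 and 9.75. Both genes overlapped between genotypes, and *Fmr1* KO replicate 1 was the highest *Fmr1* KO library for each. The log2 change was -0.06 (95% interval -0.20 to 0.09) for *Nr1d1* and 0.02 (95% interval -0.12 to 0.17) for *Nr1d2*, with adjusted p = 0.740 and 0.907 in limma. The change of *Nr1d1* was -0.01 without WT replicate 2, -0.03 without *Fmr1* KO replicate 3, -0.09 without WT replicate 1 and -0.09 without *Fmr1* KO replicate 1. That of *Nr1d2* was -0.02 without *Fmr1* KO replicate 1, 0.06 without *Fmr1* KO replicate 3 and 0.0155 without WT replicate 1. In the GENCODE annotation, 263 of the 3077 exonic bases of *Nr1d1* (8.55%) are shared with *Thra*, the thyroid hormone receptor gene on the opposite strand. The deposited region of the *Nr1d1* locus begins at 98741776, 26156 bases below the lower RefSeq bound, and *Thra* is listed with the same region. *Thra* was at 331 to 366 FPKM over the 6 libraries, and it was not given in the sources used here whether counting used strand, so the level of *Nr1d1* is uncertain.

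*Dbp* (chromosome 7, 45705100 to 45710203), a PAR bZIP factor whose transcript has one of the widest daily swings of the clock, had the lowest p-value of the 10. It was at 24.2, 21.5 and 23.1 FPKM in WT and at 19.8, 19.3 and 18.9 in *Fmr1* KO. The genotypes did not overlap, and the lowest WT library, replicate 2, was above the highest *Fmr1* KO library, replicate 1. WT averaged 22.9 ± 1.32 FPKM and *Fmr1* KO 19.4 ± 0.436 (SD, n = 3). On the log2 scale *Dbp* differed by -0.24 (standard error 0.06, 95% interval -0.37 to -0.11, adjusted p = 0.130 in limma). The exact permutation test of *Dbp* gave p = 0.1 (two-sided), the smallest possible and the value of any gene with separate libraries. In limma, 1.99% of all tested loci had a smaller p than *Dbp*. Of its exonic bases, 539 of 2993 (18.0%) are shared with *Sphk2* on the opposite strand. *Sphk2*, a sphingosine kinase gene, was at 8.48, 6.87 and 7.27 FPKM in WT and at 7.16, 7.28 and 7.48 in *Fmr1* KO, so its libraries overlapped, and reads of the shared bases cannot be told apart without strand.

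The loci whose pattern over the 6 libraries was most like that of *Dbp* were *Kcnh2*, a potassium channel gene, *Usp2*, a deubiquitinase gene, and *Msmo1*, an enzyme gene of cholesterol synthesis. The measure was the root mean square difference of log2(FPKM + 0.1), with each locus centred on its own mean, and it was 0.017, 0.021 and 0.024. *Usp2* is itself a clock-controlled gene and is on the list of other clock genes described next.

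Of 26 other genes of the clock pathway, 25 were tested. In limma, 0 of the 25 passed an adjusted p of 0.05 (0.265% of all loci), 3 were lower at an unadjusted p below 0.05 (7.77% of all loci) and 0 were higher (6.99% of all loci). The median log2 change over the 25 was -0.01. The 3 lowest fitted changes were those of *Bhlhe41* and *Bhlhe40*, repressors that compete for E-boxes, and of *Usp2*. *Bhlhe41* was at 7.50, 6.38 and 7.06 FPKM in WT and at 5.91, 5.81 and 6.02 in *Fmr1* KO, and differed by -0.23 on the log2 scale (adjusted p = 0.229 in limma). *Bhlhe40* was at 16.0, 18.3 and 16.6 FPKM and at 14.9, 13.9 and 15.0, and differed by -0.21 on the log2 scale (adjusted p = 0.211). *Usp2* was at 12.6, 11.6 and 12.3 FPKM and at 10.7, 10.3 and 10.3, and differed by -0.22 on the log2 scale (adjusted p = 0.162). These 3 were also the genes of this list with all *Fmr1* KO libraries below all WT libraries, which 10.3% of all loci showed.

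The 3 largest fitted changes above 0 were in *Rora*, *Timeless* and *Cipc*. *Rora*, the nuclear receptor that activates *Arntl* at the sites where REV-ERB represses it, was at 3.34, 3.69 and 3.61 FPKM in WT and at 3.97, 3.96 and 4.18 in *Fmr1* KO, and differed by 0.18 on the log2 scale (95% interval -0.01 to 0.38, adjusted p = 0.360 in limma). *Timeless* had a log2 change of 0.13 and *Cipc*, an inhibitor of CLOCK, of 0.09 (adjusted p = 0.674 and 0.515). Without WT replicate 2 that of *Timeless* was 0.08, without *Fmr1* KO replicate 1 it was 0.09, and without WT replicate 1 that of *Cipc* was 0.05. All *Fmr1* KO libraries were above all WT libraries for 5 of the 25 genes, which 10.8% of all loci showed. They were *Rora*, *Timeless* and, named after their values were seen, *Gsk3b*, *Csnk1d* and *Nono*. *Tef* and *Hlf*, the other PAR bZIP genes beside *Dbp*, had log2 changes of 0.06 and -0.10 with overlapping libraries (adjusted p = 0.615 and 0.582). They were 0.03 without *Fmr1* KO replicate 3 for *Tef* and -0.04 without *Fmr1* KO replicate 2 or -0.06 without WT replicate 3 for *Hlf*.

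**Figure D3:**
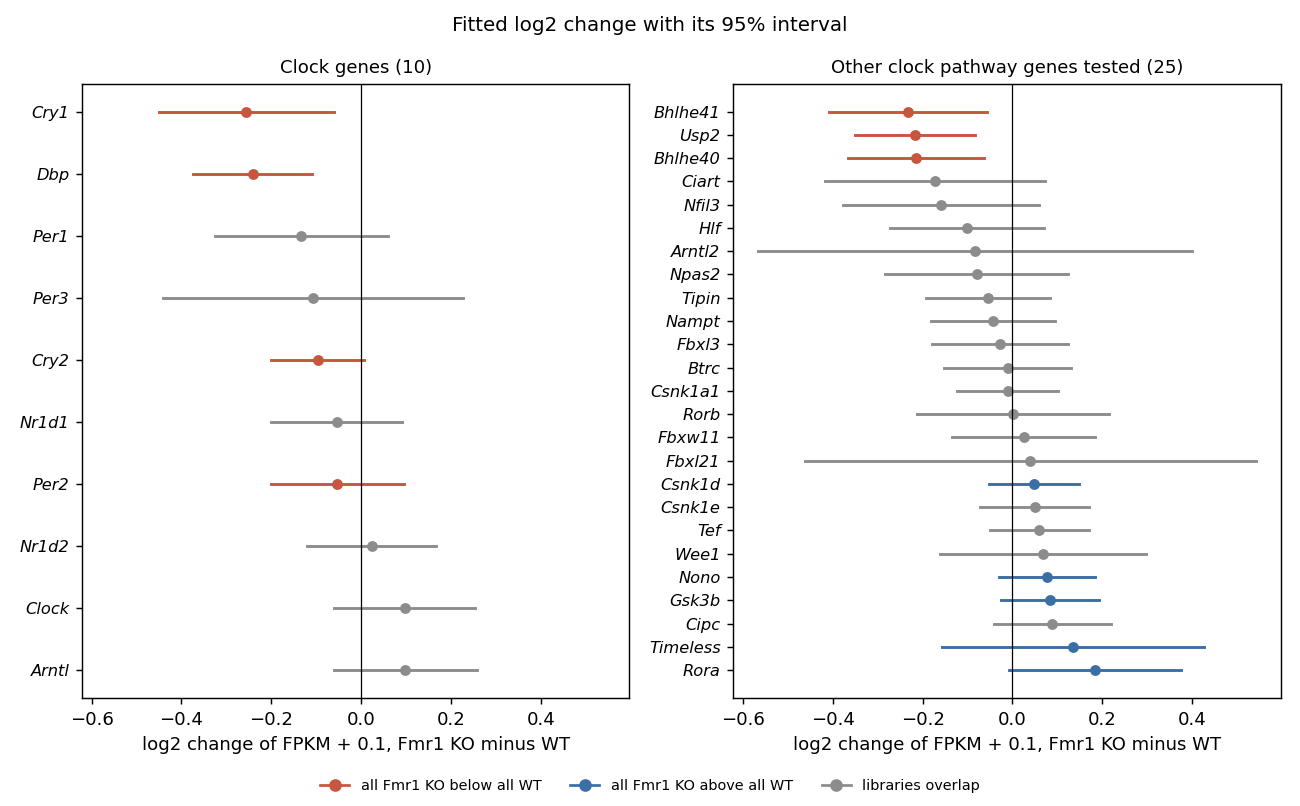
Fitted log2 change of FPKM + 0.1, Fmr1 KO minus WT, with its 95% interval (horizontal axis) for the 10 clock genes and the 25 other clock pathway genes tested. Colour marks genes whose Fmr1 KO libraries all lie below (4 and 3 genes) or above (0 and 5 genes) the WT libraries, and none of the 35 genes passed an adjusted p of 0.05.

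Ratios of 2 genes within a library do not depend on how libraries are scaled. They were chosen after the values were seen and are given without a test. Of 10 ratios computed, 8 did not overlap between genotypes. Most of the 8 hold *Dbp*, *Cry1* or *Cry2*, whose own libraries were already separate, so the choice of pairs largely set this count. The share over other pairs of loci was not computed. That of *Nr1d1* to *Arntl* was among the 8, although each of these genes alone overlapped. The ratio of *Dbp* to *Arntl* was 3.998, 3.41 and 3.67 in WT, against 2.96, 3.08 and 2.70 in *Fmr1* KO. The ratio of *Cry1* to *Arntl* was 1.14, 1.14 and 1.08 in WT, against 0.945, 0.825 and 0.848 in *Fmr1* KO. *Cry1* and *Arntl* had close levels, with *Cry1* the higher in every WT library and the lower in every *Fmr1* KO library. To *Clock*, the other activator, the ratio of *Cry1* was 0.672, 0.599 and 0.618 in WT, against 0.534, 0.435 and 0.511 in *Fmr1* KO. *Cry1* was thus below *Clock* in both genotypes. The ratio of the 2 cryptochromes, *Cry2* to *Cry1*, was 3.71, 3.63 and 3.78 in WT, against 3.83, 4.62 and 4.02 in *Fmr1* KO, higher in every *Fmr1* KO library. In contrast, the ratio of *Per1* to *Per2* was 1.54, 1.79 and 1.502 in WT, against 1.57, 1.64 and 1.36 in *Fmr1* KO and overlapped. These ratios restate in part the separate values of *Dbp*, *Cry1* and *Cry2* given before.

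**Figure D4:**
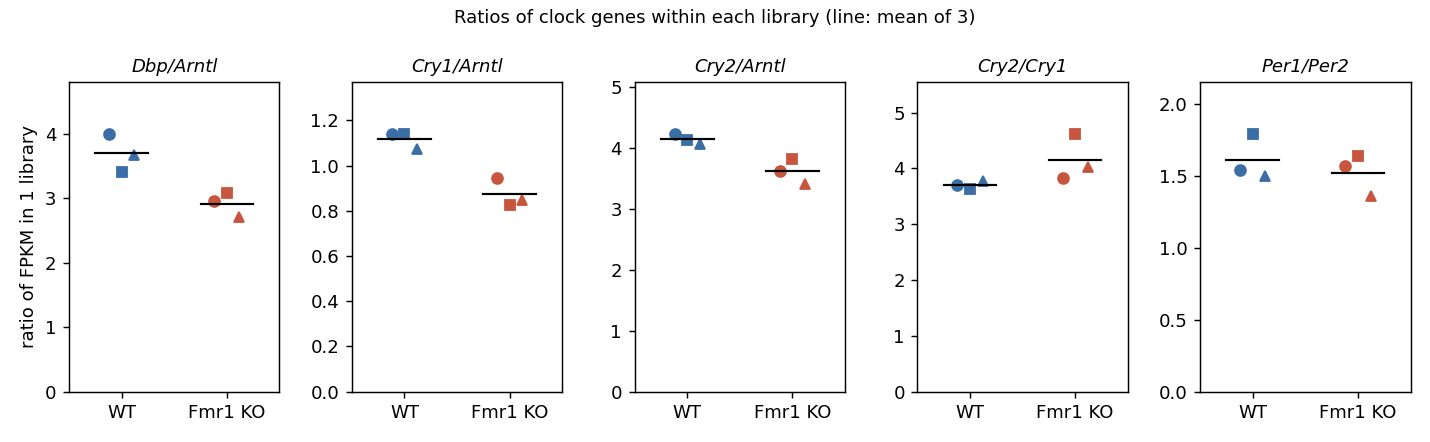
Ratio of the FPKM of 2 clock genes in the same library (vertical axes, each from 0) for WT and Fmr1 KO, with circles, squares and triangles for replicates 1, 2 and 3 and a line at the mean of 3. The ratios of Dbp, Cry1 and Cry2 to Arntl are lower in all Fmr1 KO libraries than in all WT libraries, that of Cry2 to Cry1 is higher in all, and that of Per1 to Per2 overlaps.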

How the data were processed

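RNA-seq was done on total RNA of primary hippocampal cultures, with 3 WT and 3 *Fmr1* KO libraries grouped by the sample labels. Per the labels and the methods, the authors removed adapters (Fastx Clipper) and junk sequence, trimmed reads (sickle), aligned them to GRCm38 by TopHat2, assembled genes by Cufflinks and compared genotypes by Cuffdiff. Tool versions, annotation and library scaling were not given in the sources used here. FPKM for each library were deposited in a single table. It also holds group FPKM, log2 fold changes, p-values and q-values of the authors' comparison, and none of these deposited columns was used.

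The table's 48100 rows were reduced to 47086 loci, and a symbol with several loci was given the locus with the highest mean FPKM. FPKM are not counts, so log2(FPKM + 0.1) was fitted with limma 3.58.1 in R 4.3.3, with a term for genotype alone, the trend of variance on level modelled, and p-values adjusted by Benjamini-Hochberg, for loci with a mean of at least 1 FPKM in either genotype. Fold changes on this scale understate those of weak genes. The fit was tested on simulated data. Exact permutation tests used scipy 1.17.1. At weakly expressed loci, WT replicate 1 most often stood to each other library in a ratio of 1.09 to 1.33, a guide to relative depth provided that FPKM were scaled to all mapped fragments. The absolute depth is unknown, so the spread of 3 libraries sets the precision, and it may be technical, since separate animals behind each library are not stated.

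Coordinates are those of RefSeq (GRCm38.p6), and exon overlaps are from GENCODE M21 on the same build. The members and lists were chosen with earlier results of these data known. Genes named were the members, the 3 lowest and 3 highest fitted changes among the other clock genes, the lowest and highest of the activity-regulated and glucocorticoid lists, marker genes, genes sharing a locus region with a member and the 3 loci most like *Dbp*. Also tried were no FPKM minimum or one of 5, pseudocounts of 1 and 0.01, centred libraries, no trend, each library left out and the replicate number as a block.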

Additional observations from a re-analysis of the deposited data

How the results depend on the processing

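No clock gene and no other clock pathway gene passed an adjusted p of 0.05 in limma under any of the 13 alternatives run. Over these, the adjusted p of *Dbp* was between 0.0860 and 0.365 and that of *Cry1* between 0.187 and 0.528. The number of all loci past 0.05 was 35, and it was 15 without an FPKM minimum, 54 with a minimum of 5, 21 without the trend and 65 with the replicate number as a block. With each library left out in turn it was 14 to 20. Whether the replicate numbers pair the samples was not settled. The deviations of same-numbered libraries correlated at 0.243, 0.058 and 0.080. WT replicates 1 and 3 correlated best with the same number, and WT replicate 2 with *Fmr1* KO replicate 3, at 0.066. The block changed no call of a clock gene. The median log2 change of the clock genes was -0.055 with a minimum of 5 FPKM, which drops *Per3*, and -0.091 to -0.0451 with each library left out, the latter without *Fmr1* KO replicate 2. Of 21 clock and clock pathway genes followed through the alternatives, only *Nr1d2* changed sign, to -0.0203 without *Fmr1* KO replicate 1, within a range of -0.0203 to 0.0641 with each library left out.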

Other observations

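Genes that respond to the signals that also induce *Per1* and *Per2* were on 2 lists. Of 9 activity-regulated genes, 7 were tested in limma, 0 passed an adjusted p of 0.05 and at an unadjusted p below 0.05 there were 2 lower genes (7.77% of all loci). They were *Nr4a1*, an orphan nuclear receptor, at 8.19, 7.79 and 6.42 FPKM in WT and at 6.28, 6.09 and 5.63 in *Fmr1* KO (log2 change -0.30, adjusted p = 0.222 in limma), and, named after its values were seen, *Arc*, at 4.77, 4.35 and 4.67 and at 3.86, 3.43 and 4.02 (log2 change -0.28, adjusted p = 0.219 in limma). The largest fitted change above 0 was that of *Egr1*, at 0.10 with overlapping libraries.

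Of 6 glucocorticoid-regulated genes, 5 were tested and *Fkbp5* was listed at 0 in every library. None passed an adjusted p of 0.05 in limma, and at an unadjusted p below 0.05 there was 1 lower (7.77% of all loci) and 1 higher (6.99% of all loci). *Sgk1*, a kinase gene, was at 9.95, 9.48 and 8.78 FPKM in WT and at 11.3, 11.01 and 10.03 in *Fmr1* KO (log2 change 0.20, adjusted p = 0.273 in limma). *Klf9*, a Krüppel-like factor, was at 24.2, 24.3 and 22.5 and at 22.7, 20.0 and 20.2 (log2 change -0.17, adjusted p = 0.274 in limma).

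Loci that share a region of the table with a clock gene were also read. *Ube2n-ps1* and *Gm7467*, beside *Clock*, had log2 changes of 0.07 and 0.51 with overlapping libraries (adjusted p = 0.603 and 0.507 in limma). *Gm35591*, beside *Per2*, *D930015M05Rik*, which shares 295 exonic bases with *Cry2*, and *Gm33721*, beside *Arntl*, were each below 1 FPKM in every library, and *Uts2*, beside *Per3*, was listed at 0.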
